A study of Mus musculus with 10 samples.

Results

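The comparison set any drug treatment against no drug in mouse tumours, using the libraries in which transcripts of the mitochondrial genome made up less than 25% of the summed expression. Of 10 libraries, 7 met that limit: 5 from treated tumours and 2 from controls. The tumours had grown under the skin of mice from 4T1 cells, a mouse mammary carcinoma line, and were taken on day 14. All labels give the same tumour, cell line and day, and the sources used here do not give the strain, sex or age of the mice, the doses, or whether the 2 libraries of a group came from separate mice, so every test below measures only the spread between these libraries. The control group is labelled negative control and was given PBS, per the design text, and gave both of its libraries. Free-MK1775 gave both, Free-MK1775+NLG919 gave replicate 1 alone, and Lipo-MK1775+NLG, which the design text writes with NLG919, gave both. What the Lipo form is made of is not stated in the labels. No library of Lipo-MK1775 without NLG919 met the limit, so that treatment does not enter the comparison.

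The libraries were chosen by their mitochondrial share, which is given as a description. It ran from 2.88% to 4.82% of summed FPKM in the 7 libraries kept, where FPKM counts sequenced fragments per length of transcript and per library size. The kept library nearest the limit was Free-MK1775 replicate 1 at 4.82%. The left-out library nearest it was Free-MK1775+NLG919 replicate 2 at 47.3%, and the Lipo-MK1775 libraries stood at 64.1% and 56.0%. Relative depth was read from the commonest product of FPKM and length among single-exon transcripts of 300 to 3000 bases. A lower product means a deeper library. Relative depth lay between 1 and 1.55 in the kept libraries, with the controls at 1.23 and 1.55. Between 11313 and 11566 genes reached an FPKM of 1 there. Defining genes were checked against the label of a cancer cell: the keratin gene Krt8 lay between 166 and 250 FPKM, while Epcam, an epithelial adhesion gene, lay between 0 and 3.82, and genes of macrophages, neutrophils, T cells, vessels, muscle and skin were all detected. Each value therefore describes a mixture of tumour and host cells.

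MK1775 inhibits WEE1, the kinase that puts an inhibitory phosphate on CDK1 and so holds cells out of mitosis until replication is complete. NLG919 acts on the IDO1 pathway, in which tryptophan is turned into kynurenine, a step known for dampening T cells. The title of the series names ferroptosis, a form of cell death driven by iron and oxidised membrane lipids, which GPX4 and glutathione hold back. In 4T1 tumours the host compartment is known to be rich in myeloid cells, since the tumour cells release G-CSF, CXCL chemokines and osteopontin.

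Among the widest separations that all 5 treated libraries shared were lower levels of the secreted or hormone-like genes Il24, Prl2c3 and Prl2c2. Higher levels of the matrix gene Npnt and of Pdgfra were among them too. Of 11 tested mast cell genes 7 lay lower (63.6%, against 8.21% of all genes tested). Il24 and 1 of those 7, Mcpt1, reached an FPKM of 1 in the controls alone and so had to lie lower. The neutrophil granule genes Ngp and Ltf, and Lyz2 and Spp1, lay higher. On their lists 5 of 21 tested neutrophil genes (23.8%) and 4 of 21 macrophage genes (19.0%) did, against 9.49% of all genes tested. For Ngp, Lyz2 and Spp1 the nearest treated library was 0.12, 0.02 and 0.04 log2 units from the nearest control. The 2 controls differed from each other by 0.59, 0.62 and 1.36 for these genes. None of these differences passed the test. In a limma fit of log2(FPKM + 1) over 12142 genes, with the 5 treated libraries set against the 2 controls, 0 genes were called higher and 0 lower at a Benjamini-Hochberg adjusted p under 0.05, the smallest adjusted p was 0.364, and 1231 genes (10.1%) had an unadjusted p under 0.05, of which 719 were higher (5.92%) and 512 lower (4.22%). Adjusted p ran from 0.364 to 0.996 over all genes named by rule, so no gene below is said to have risen or fallen. An exact permutation test of 5 libraries against 2 cannot give a two-sided p under 0.0952 and was not used.

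What follows describes genes for which every treated library lay beyond both controls. That is how they were chosen, so their separation is a description. It held upward for 1152 genes (9.49% of those tested) and downward for 997 (8.21%), or 2149 in all (17.7%). Most separations were narrow. The gap between the nearest treated and the nearest control library had a median of 0.07 log2 units for the higher genes and 0.08 for the lower ones, while the 2 controls themselves differed by a median of 0.17 over all genes tested. The gap exceeded the distance between the controls in 459 higher and 465 lower genes, and exceeded 0.5 log2 units in 24 and 17. When FPKM was rescaled to nuclear named genes, 707 genes were higher and 1464 lower, so the balance of the directions depended on the scaling; the median log2 change of all genes was 0.03 as deposited. With an FPKM of 1 required in at least 2 libraries, 22 genes passed through the 2 controls alone and so had to lie lower, and 381 passed through treated libraries alone, of which 89 lay higher.

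Transcript length differed between the directions, and the share of FPKM without a gene symbol differed between control and treated libraries. The higher genes had a median transcript length of 2285 bases, the lower ones 3576 and all genes tested 2750. With the genes cut into 4 equal classes by length, 12.9% of the longest were lower in all 5 treated libraries and 5.37% higher, and of the shortest 4.02% were lower and 12.7% higher. Transcripts that the assembly left without a gene symbol carried 13.3% and 14.2% of summed FPKM in the controls and 12.2% to 12.6% in the treated libraries, with no overlap, so a gene summed over its named transcripts could stand low in either group because its reads sat on an unnamed one. With such transcripts added to the symbol they overlapped, 926 of the 1152 higher genes (80.4%) and 812 of the 997 lower genes (81.4%) remained beyond both controls. The part of length in the results was not tested, and a gene that lost its separation with the unnamed transcripts added is named as such.

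**Figure D1:**
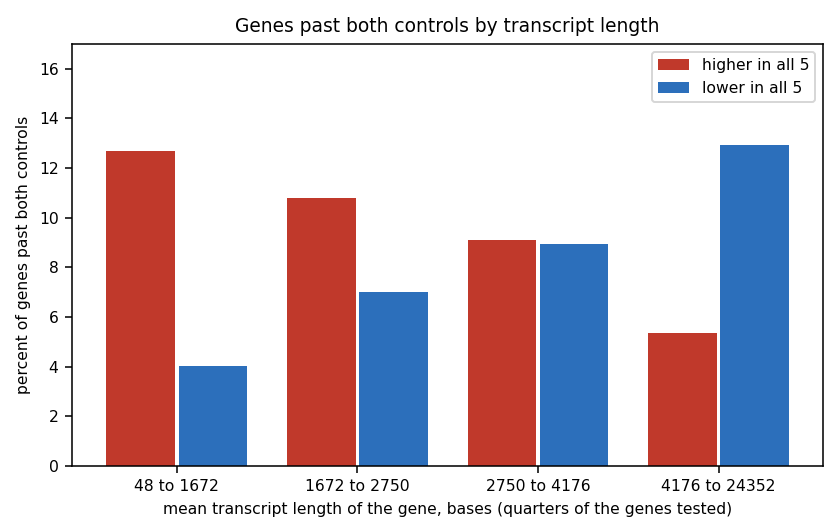
Percent of genes (y axis) that lay above both controls in all 5 treated libraries (red) or below both (blue), in 4 equal classes of mean transcript length in bases (x axis). The blue bars climb from 4.02% to 12.9% and the red bars drop from 12.7% to 5.37% as transcripts lengthen.

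Among the lower genes, those of the prolactin family included the largest change of the 15 genes with the widest gap. Prl2c2 and Prl2c3 encode proliferins, placental hormones that several mouse tumour lines also secrete, and their near-identical copies can share reads. Prl2c3 (GRCm39 chromosome 13, 12805705 to 12815188) stood at 34.1 and 32.2 FPKM in the controls, 11.7 and 13.8 with Free-MK1775, 0.740 with Free-MK1775+NLG919, and 4.60 and 2.91 with Lipo-MK1775+NLG. All treated libraries lay below both controls, the Free-MK1775 pair nearest to them, and the log2 change was -2.53 (SE 0.78). Prl2c2 stood at 3.03 and 3.66 FPKM in the controls, 1.75 and 1.46 with Free-MK1775, 0 with Free-MK1775+NLG919, and 0.802 and 0.729 with Lipo-MK1775+NLG, in the same order of groups as Prl2c3. Prl8a9, another member, reached an FPKM of 1 in the controls alone, at 1.38 and 5.02, and was at most 0.646 in the treated libraries. These 3 were all of the 9 listed family members that passed the filter on low values. The family's summed FPKM was 38.5 and 40.9 in the controls and 0.740 to 15.9 in the treated libraries.

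The promoter of Prl2c3 is shown because the gene had the largest log2 change of the 15 lower genes with the widest gap. Capitals mark a match to the AP-1 motif TGANTCA, which reads alike on both strands. It occurred in 7.81% of the 32851 promoter windows of the same length in the RefSeq table, each from 250 bases before to 50 after a start site. Here and below a gene counts as holding a motif if any of its windows does. Counts of genes and shares of single windows are therefore unlike measures. Of the 3 lower genes of the immediate early list, 2 had a window and 0 of those held the motif. The Prl2c3 window also holds 1 match to the GATA motif AGATAA, left unmarked. These matches are descriptions and not sites.
Prl2c3 promoter (RefSeq, GRCm38.p6, chr13:12800030-12800329, minus strand): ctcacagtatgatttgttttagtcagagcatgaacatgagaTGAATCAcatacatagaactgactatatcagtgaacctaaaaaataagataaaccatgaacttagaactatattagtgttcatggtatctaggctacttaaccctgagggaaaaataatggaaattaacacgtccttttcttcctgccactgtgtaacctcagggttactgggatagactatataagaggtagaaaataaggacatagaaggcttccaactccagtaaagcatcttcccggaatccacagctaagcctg

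Il24, a cytokine of the IL-10 family, had the widest gap of the lower genes, at 1.23 log2 units. It stood at 3.47 and 4.28 FPKM in the controls, 0.909 and 0.837 with Free-MK1775, 0.134 with Free-MK1775+NLG919, and 0.354 and 0.474 with Lipo-MK1775+NLG (log2 change -1.68, SE 0.24; GRCm39 chromosome 1, 130809811 to 130815191). It reached an FPKM of 1 in the controls alone, so it passed the filter through the side where it was high. With the unnamed transcripts added, the controls stood at 6.79 and 6.39 and the treated libraries at 0.134 to 1.06, so the separation was wider there. Among the left-out libraries, which the rule set aside, Lipo-MK1775 replicate 1 stood at 4.01 FPKM.

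Plk3, a stress-responsive kinase of the polo family and a p53 target, lay at 24.0 and 23.5 FPKM in the controls, 13.2 and 15.4 with Free-MK1775, 10.2 with Free-MK1775+NLG919, and 11.7 and 12.97 with Lipo-MK1775+NLG. The 2 controls were nearly equal and all treated libraries lay well below them (log2 change -0.86, SE 0.15). Mmp12, the elastase of macrophages, was at 37.6 and 48.5 FPKM in the controls and at 19.8, 24.9, 22.5, 25.9 and 23.9 in the treated libraries in the same order of groups. Its treated values were the tighter set, and its log2 change was -0.85 (SE 0.14). Calr4, a calreticulin gene of the endoplasmic reticulum, stood at 3.56 and 3.85 FPKM in the controls and at 0.0952 to 1.94 in the treated libraries.

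The same separation, with changes of -0.77 to -1.10 log2 units, was seen for Plcxd2, Serpind1 (heparin cofactor II), the zinc carrier Slc39a13 and the chromatin remodelling subunit Ino80c. Slc39a13 shrank from -0.86 to -0.47 with the unnamed transcripts added, and Dsg2, a desmosomal cadherin, reached an FPKM of 1 in the controls alone. For 3 more of the 15 genes with the widest gap the separation ended with those transcripts: Trim25 went from -1.59 to 0.01, Agrn from -1.57 to -0.02 and Ptk2 from -0.79 to -0.17. For these genes the named transcripts carried only a part of the FPKM of the locus.

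Among the higher genes Npnt, which encodes nephronectin, a ligand of integrin alpha8 in the extracellular matrix, was high in every treated library. It stood at 4.26 and 4.50 FPKM in the controls, 33.7 and 8.98 with Free-MK1775, 88.0 with Free-MK1775+NLG919, and 11.4 and 13.2 with Lipo-MK1775+NLG (log2 change 2.05, SE 0.80; GRCm39 chromosome 3, 132587506 to 132656052). The controls were close to each other, and the treated libraries, though all above them, differed widely among themselves. With the unnamed transcripts added, control replicate 2 stood at 8.75 and the nearest treated library at 9.01, so the separation became a narrow one.

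Pdgfra, the receptor that marks fibroblasts, stood at 6.80 and 7.21 FPKM in the controls, 13.8 and 11.6 with Free-MK1775, 21.7 with Free-MK1775+NLG919, and 14.5 and 21.7 with Lipo-MK1775+NLG (log2 change 1.10, SE 0.25). Syt13, a synaptotagmin, separated with little spread, at 14.3 and 16.2 FPKM in the controls and 28.1, 25.4, 35.0, 30.2 and 26.9 in the treated libraries (0.89, SE 0.13). Gper1, a membrane oestrogen receptor, was at 1.06 and 1.07 in the controls and at 2.32 to 6.18 in the treated libraries. The bone matrix gene Dmp1 (0.495 and 0 against 1.49 to 3.43) and the lipoprotein gene Apoc2 (0.681 and 0.651 against 1.67 to 4.33) reached an FPKM of 1 in treated libraries alone.

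For several others of the 15 widest the change shrank or the separation ended with the unnamed transcripts added. Vwa5a had the largest log2 change of these 15 at 2.11 (SE 0.45), with 2.08 and 6.87 FPKM in the controls and 16.2 to 40.7 in the treated libraries, and 0.65 with the unnamed transcripts added. Sdf4, Tor4a and Leo1 likewise shrank, from 1.35, 1.08 and 1.40 to 0.20, 0.34 and 0.23, and still separated. Msto1, Dnase1l3, Nckap5l and Vma21 did not separate once those transcripts were added, with log2 changes of 0.08, 0.49, 0.16 and -0.22.

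**Figure D2:**
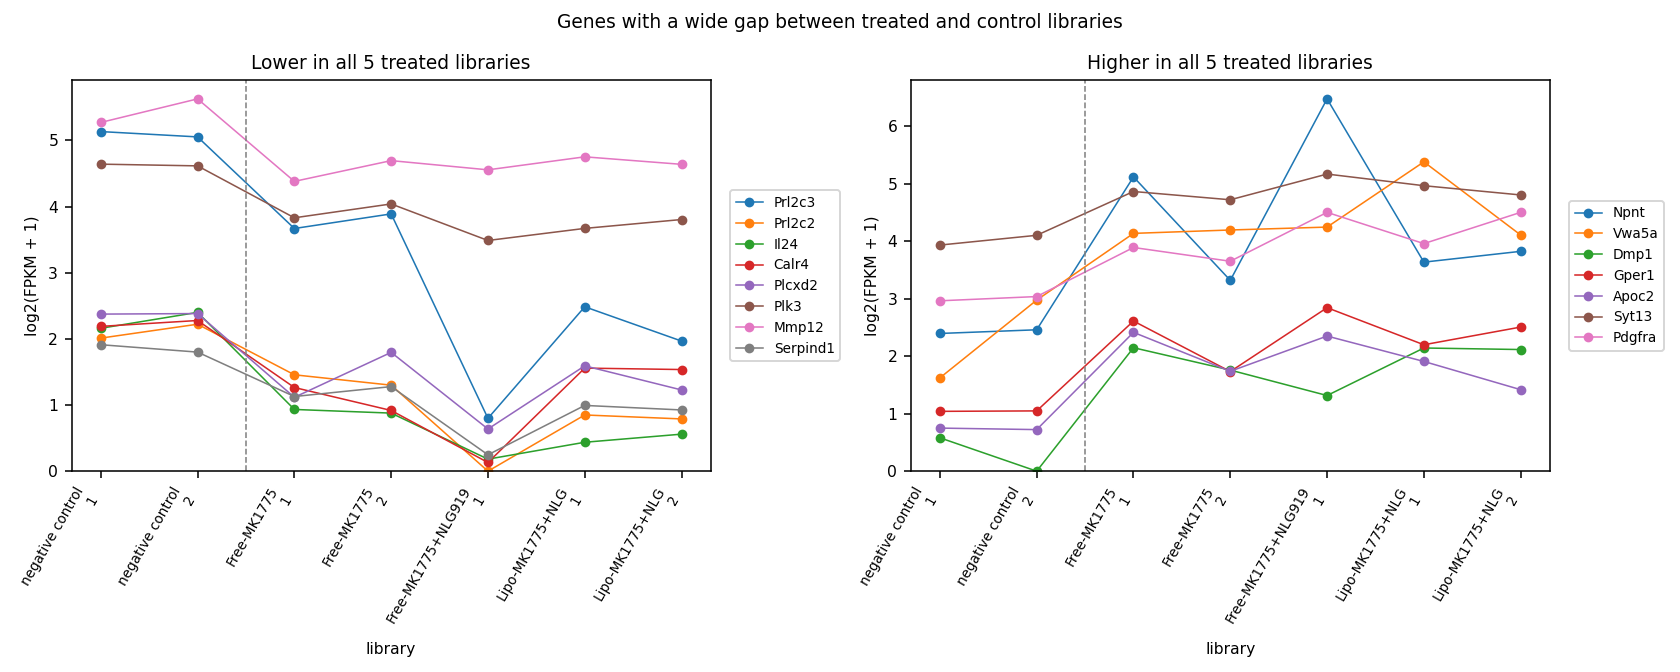
Level on the log2(FPKM + 1) scale (y axis) in each of the 7 libraries (x axis, controls left of the dashed line) for 8 genes below and 7 genes above both controls in every treated library. Each point is 1 library; Free-MK1775+NLG919 replicate 1 holds the lowest point for Prl2c3, Il24 and Calr4 and the highest for Npnt.

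Cell types were read from marker lists. In bulk tumour RNA, fewer cells of a type and less RNA per cell cannot be told apart. Over all 58 lists, of cell types and of pathways, limma called 0 members, and members beyond both controls are counted below against 9.49% higher and 8.21% lower among all genes tested.

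Mast cell genes were lower. Mast cells are tissue granulocytes that store tryptases, chymases and carboxypeptidase A3, and they depend on the receptor KIT and the transcription factor GATA2. Of 11 tested members, 7 lay below both controls in all 5 treated libraries and 0 above, all 11 log2 changes were negative, and their median was -0.99, against 0.03 over all genes. The 7 were the tryptases Tpsab1 and Tpsb2, the carboxypeptidase Cpa3, the protease Mcpt1, the IgE receptor chain Fcer1a, Kit and Gata2; Tpsb2, Kit and Gata2 were named after their values had been seen. Mcpt1 reached an FPKM of 1 in the controls alone and so had to lie lower, and with a mean FPKM of at least 1 required 5 members were lower. The list's median transcript length of 1215 bases was below that of all genes, and the same number of members was lower with the unnamed transcripts added and with median-of-ratios scaling.

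Tpsab1 stood at 26.9 and 25.4 FPKM in the controls, 6.13 and 11.2 with Free-MK1775, 2.45 with Free-MK1775+NLG919, and 7.89 and 18.8 with Lipo-MK1775+NLG (log2 change -1.63, SE 0.58). Cpa3 stood at 7.50 and 5.40 in the controls, 0.844 and 2.32 with Free-MK1775, 0.199 with Free-MK1775+NLG919, and 2.15 and 4.14 with Lipo-MK1775+NLG (-1.50, SE 0.52). Fcer1a went from 2.02 and 1.74 FPKM to between 0 and 1.16. In each of these the lowest library was Free-MK1775+NLG919 replicate 1 and the one nearest the controls was Lipo-MK1775+NLG replicate 2. The summed FPKM of the list showed how near that library came: 93.4 and 71.6 in the controls, 24.7 and 46.1 with Free-MK1775, 17.9 with Free-MK1775+NLG919, and 37.1 and 71.3 with Lipo-MK1775+NLG.

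The chymases Mcpt4 and Cma1 did not separate, as Lipo-MK1775+NLG replicate 2 lay between the controls for both (8.60 for Mcpt4 and 7.14 for Cma1, against controls of 11.8 and 5.61, and 9.10 and 5.59). The histamine-forming enzyme Hdc and the prostaglandin synthase Hpgds, which other cells also make, did not separate either. Mcpt8, a protease of basophils, went the other way in 4 of the 5 treated libraries: 1.71 and 1.49 FPKM in the controls, 1.12 and 1.82 with Free-MK1775, 3.68 with Free-MK1775+NLG919, and 6.04 and 6.12 with Lipo-MK1775+NLG. It was the single member of the basophil and eosinophil list that passed the filter.

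The promoters of Cpa3 and Fcer1a are shown because they are the mast cell genes below the controls whose RefSeq window holds the GATA motif AGATAA, in capitals here, on either strand (the other strand reads TTATCT). Of the 7 lower mast cell genes 5 had a window and 2 of those held the motif, which 11.2% of all windows held.
Cpa3 promoter (RefSeq, GRCm38.p6, chr3:20242132-20242431, minus strand): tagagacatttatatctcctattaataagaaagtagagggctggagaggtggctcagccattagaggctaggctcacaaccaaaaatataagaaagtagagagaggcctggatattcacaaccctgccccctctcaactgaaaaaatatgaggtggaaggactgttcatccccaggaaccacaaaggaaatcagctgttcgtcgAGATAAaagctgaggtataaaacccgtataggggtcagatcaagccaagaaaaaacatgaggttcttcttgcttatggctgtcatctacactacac
Fcer1a promoter (RefSeq, GRCm38.p6, chr1:173227180-173227479, minus strand): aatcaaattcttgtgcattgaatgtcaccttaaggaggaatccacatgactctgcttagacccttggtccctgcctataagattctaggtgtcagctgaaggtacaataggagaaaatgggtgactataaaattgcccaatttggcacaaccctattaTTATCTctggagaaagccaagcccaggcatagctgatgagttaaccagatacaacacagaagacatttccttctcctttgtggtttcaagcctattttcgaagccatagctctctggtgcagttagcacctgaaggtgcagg

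Of 21 tested neutrophil genes, 5 lay above both controls in all treated libraries (23.8%) and 0 below: lactoferrin (Ltf), proteinase 3 (Prtn3), neutrophilic granule protein (Ngp), the surface protein Cd177, and the cathelicidin Camp, which was named after its values had been seen. Ngp stood at 7.63 and 4.73 FPKM in the controls, 23.7 and 8.36 with Free-MK1775, 19.9 with Free-MK1775+NLG919, and 9.20 and 13.5 with Lipo-MK1775+NLG (log2 change 1.08, SE 0.41). Ltf stood at 1.66 and 0.976 in the controls and at 5.08, 2.63, 4.75, 2.68 and 3.28 in the treated libraries in the same order (1.00, SE 0.26). For both, Free-MK1775 replicate 1 was the highest and Free-MK1775+NLG919 replicate 1 came next. Prtn3 and Cd177 reached an FPKM of 1 in treated libraries alone. The granule protein genes Lcn2 and Mmp8 (0.38 and 0.23), named after their values had been seen, did not separate.

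S100a8 and Retnlg did not separate. S100a8, a calcium-binding protein that mature neutrophils hold in bulk, stood at 145 and 107 FPKM in the controls, 99.0 and 154 with Free-MK1775, 124 with Free-MK1775+NLG919, and 303 and 223 with Lipo-MK1775+NLG, so the treated libraries lay on both sides of the controls; by limma's moderated F test the treated groups did not pass as different for it (adjusted p = 0.614). Retnlg, which was named after its values had been seen, lay at 19.2 and 17.7 in the controls, at or under the lower control with the free drug (11.2 to 17.7) and above both with Lipo-MK1775+NLG (46.8 and 43.1). The number of the 21 members above both controls was 6, 9 and 8 in the 3 libraries given the free drug and 18 and 20 in the Lipo-MK1775+NLG pair. Of all 12142 genes, 39.4%, 29.7% and 47.2% lay above both controls in the 3 libraries given the free drug and 44% and 41.4% in the pair; whether the list differed between the groups was not tested. The median change of the list over all 5 was 0.23, with 15 changes positive and 6 negative.

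Of 21 tested macrophage genes, 4 lay above both controls in every treated library (19.0%), 0 below, and the median change was 0.38. The 6 negative changes included Cd163 (-0.55) and Gpnmb (-0.41), named after their values had been seen, which did not separate. Lyz2, the lysozyme of myeloid cells, stood at 311 and 478 FPKM in the controls, 893 and 486 with Free-MK1775, 1079 with Free-MK1775+NLG919, and 743 and 668 with Lipo-MK1775+NLG (log2 change 0.95, SE 0.31). Spp1, which encodes osteopontin and is also made by tumour cells, stood at 458 and 1178 in the controls and at 2485, 1210, 2092, 1303 and 1620 in the treated libraries (1.19, SE 0.41). In both genes Free-MK1775 replicate 2 lay only just above control replicate 2, and the controls differed more from each other than that library did from the nearer of them. Fcgr1, the high-affinity Fc receptor, went from 13.2 and 14.0 FPKM to between 15.8 and 32.5, and the lipoprotein gene Apoe from 176 and 193 to between 196 and 321. Without negative control replicate 2 the count was 12 of 21, and without Free-MK1775 replicate 2 it was 9.

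The complement genes C1qa, C1qb and C1qc, which tissue macrophages make, did not separate; C1qa, named after its values had been seen, stood at 244 FPKM in Free-MK1775 replicate 2, between controls of 206 and 299. Treml4, on the list of monocytes, lay at 0.769 and 0.532 FPKM in the controls and at 0.793 to 3.41 in the treated libraries, and reached an FPKM of 1 in treated libraries alone. Cathepsin and lysosome genes had positive changes in 17 of 20 members, of which 2 separated upward; Ctsh stood at 29.9 and 44.9 FPKM in the controls and at 50.5 to 77.3 in the treated libraries (0.73, SE 0.21, and 0.41 with the unnamed transcripts added).

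**Figure D3:**
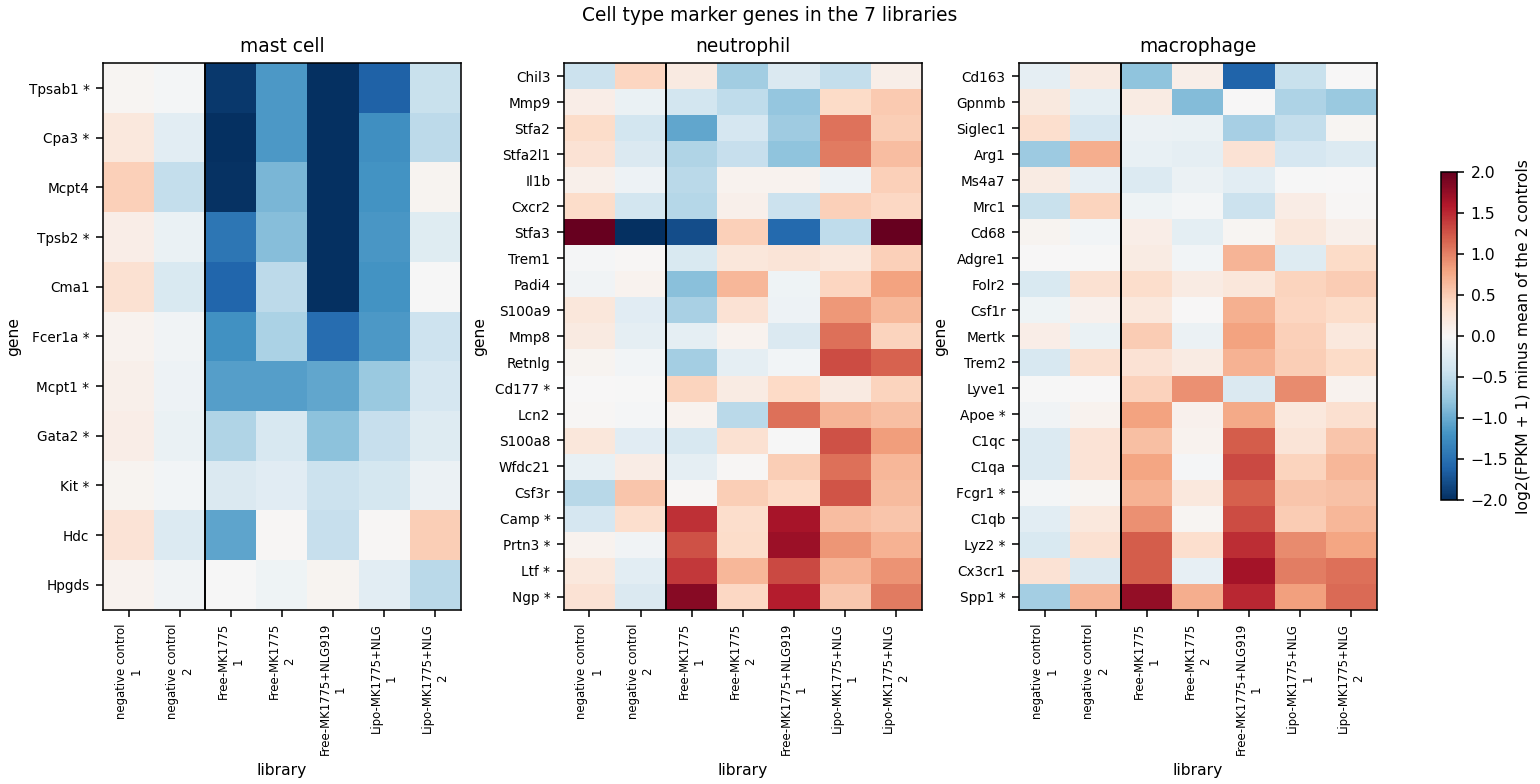
Difference of log2(FPKM + 1) from the mean of the 2 controls (colour, red higher and blue lower, limited to 2 log2 units) for members of the mast cell, neutrophil and macrophage lists (rows) in the 7 libraries (columns, controls left of the line). An asterisk marks members beyond both controls in all 5 treated libraries: 7 of 11, 5 of 21 and 4 of 21.

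MHC class II genes, which present antigen on dendritic cells, macrophages and B cells, had positive changes in all 10 tested members with a median of 0.62, and 1 of them separated. H2-Eb1 stood at 56.6 and 62.0 FPKM in the controls, 154 and 72.5 with Free-MK1775, 278 with Free-MK1775+NLG919, and 83.0 and 106 with Lipo-MK1775+NLG (1.03, SE 0.48). The spread among the treated libraries was wider than the distance of the nearest of them from the controls. Of 8 dendritic cell genes 1 separated, the interferon-induced Bst2, at 91.4 and 101 FPKM in the controls and 106 to 222 in the treated libraries.

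T cell genes showed no shared direction: 0 of 13 tested members separated either way, and the median change was -0.03. Cd8a, the co-receptor of cytotoxic T cells, stood at 1.78 and 0.460 FPKM in the controls and at 0.948 to 2.89 in the treated libraries, which overlapped them. The T cell kinase Lck stood at 3.45 and 3.11 in the controls and at 2.41 to 3.44. Of 8 cytotoxic genes 1 separated, the granzyme gene Gzma, which lay lower at 0.983 to 1.43 FPKM against 1.80 and 2.37 (-0.52, SE 0.15). Gzma went against its list, in which 7 of the 8 changes were positive and the median change was 0.21.

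Other host tissues gave mixed values. Of 17 fibroblast genes 2 were higher, Pdgfra and the proteoglycan gene Ogn (3.33 and 2.47 FPKM in the controls, 3.66 to 10.1 in the treated libraries), 1, Pi16, was lower, and the median was -0.22, so the list as a whole did not go with Pdgfra. Of 15 endothelial genes 2, Esam and Flt1, were higher and 1, the transcription factor gene Sox17, was lower; Flt1 (0.17) did not separate with the unnamed transcripts added or with median-of-ratios scaling. Itgb3, a platelet integrin chain, was lower in all 5 by named transcripts (-1.55) and not with the unnamed ones added (-0.11), and the platelet chemokine Pf4 overlapped between the groups.

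Tissue taken along with a tumour varied between libraries of the same group. The muscle actin gene Acta1 stood at 52.2 and 12.5 FPKM in the controls and at 7.49 to 94.8 in the treated libraries, and the keratinocyte gene Krt14 at 140 and 0 in the controls and at 0 to 194. Of 17 skeletal muscle and 12 skin genes 0 separated. The beta globin gene Hbb-bs, a sign of blood, lay at 27.1 and 35.4 FPKM in the controls and at 134, 122, 62.0, 26.0 and 44.8 in the treated libraries, overlapping the controls. The summed FPKM of the muscle list was 42.2 to 134 in the controls and 31.0 to 299 in the treated libraries, that of the skin list 6.72 to 577 and 21.0 to 456, and their part in the results above was not tested. Of 12 genes of 4T1 epithelial cells 1 separated, the claudin gene Cldn4, which was lower at 1.19 to 1.83 FPKM against 2.67 and 2.45, and Krt8 overlapped.

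**Figure D4:**
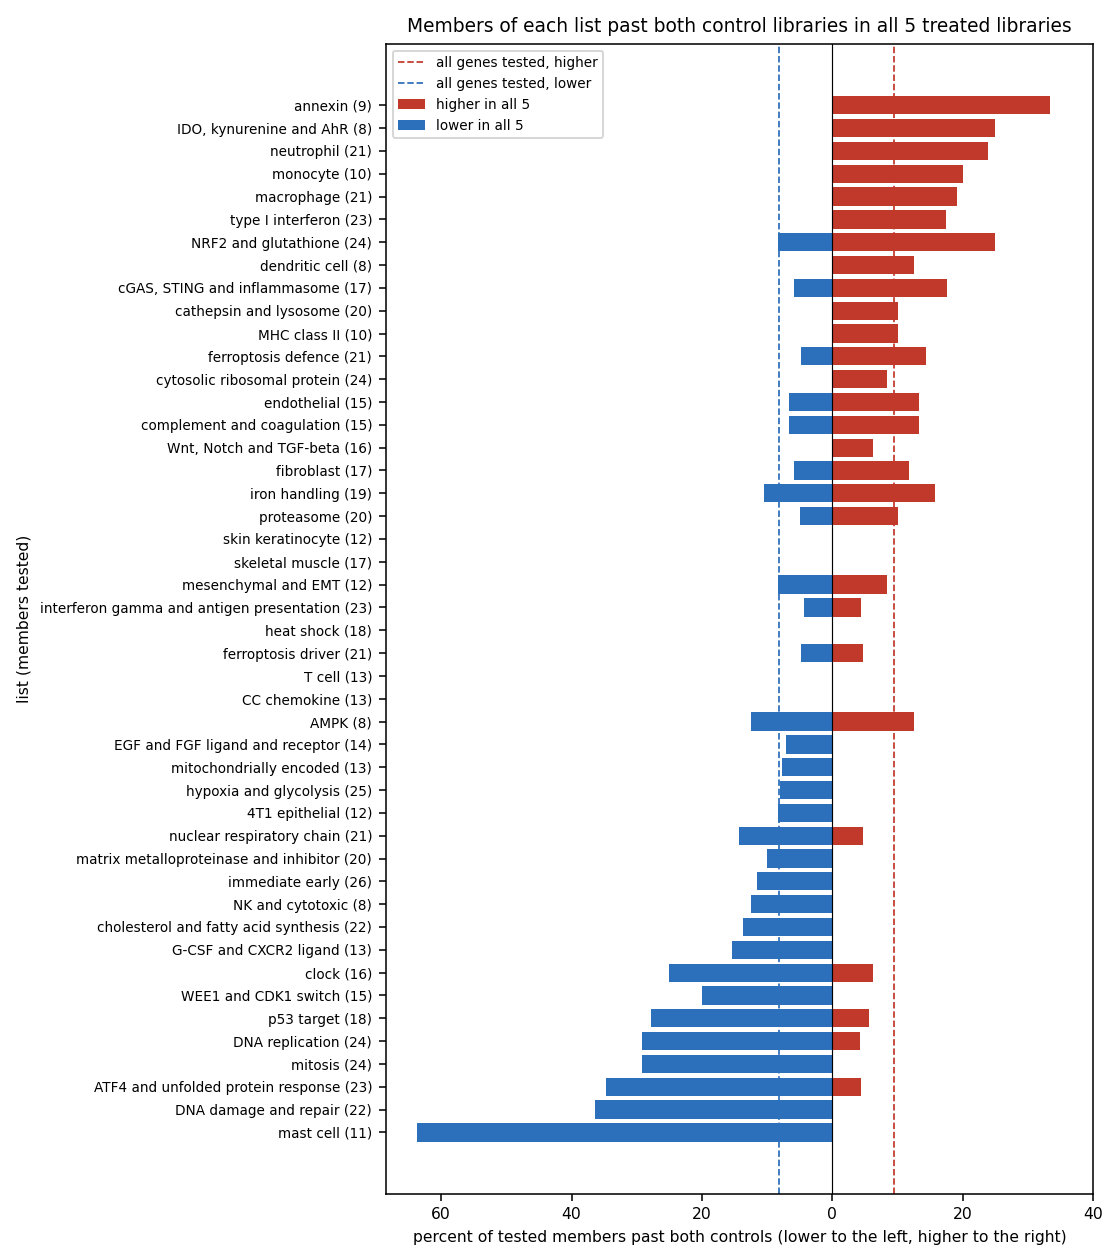
Percent of the tested members of each list (rows, number tested in parentheses) that lay below both controls in all 5 treated libraries (blue, left) or above both (red, right), for the 46 lists with at least 8 tested members. The dashed lines give the share among all genes tested, 8.21% lower and 9.49% higher; the mast cell list reaches furthest to the left with 7 of 11.

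Of the 15 genes around WEE1 and CDK1, the switch that MK1775 acts on, 3 separated downward (20%, against 8.21% of all genes) and 0 upward, and the median change was -0.15. Wee1 itself, the target, stood at 9.14 and 10.4 FPKM in the controls, 8.10 and 9.39 with Free-MK1775, 6.16 with Free-MK1775+NLG919, and 7.94 and 7.05 with Lipo-MK1775+NLG; Free-MK1775 replicate 2 lay between the controls. Chek1, the checkpoint kinase that acts above WEE1, went from 12.6 and 13.3 FPKM to 10.8, 10.04, 7.52, 11.05 and 8.35 (-0.41, SE 0.16). The cyclin gene Ccne2 went from 5.41 and 5.06 to between 4.27 and 4.78. Cdk1, the mitotic kinase, lay at 18.3 and 19.98 in the controls and 14.2 to 17.3 in the treated libraries by named transcripts, but at 26.4 in Free-MK1775 replicate 2 with the unnamed ones added, which ended the separation.

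Of 24 mitosis genes, 7 separated downward (29.2%) and 0 upward, 21 changes were negative and the median was -0.27. Mki67, which encodes the proliferation antigen Ki-67, stood at 23.1 and 22.0 FPKM in the controls, 13.03 and 17.03 with Free-MK1775, 8.61 with Free-MK1775+NLG919, and 19.1 and 14.7 with Lipo-MK1775+NLG (-0.65, SE 0.26). Nuf2, of the kinetochore, went from 16.3 and 16.0 to between 11.51 and 14.6, and the spindle checkpoint kinase gene Ttk from 6.70 and 8.09 to between 3.81 and 6.35 (-0.46, and -0.28 with the unnamed transcripts added). Kif23, a kinesin of cell division, and Prc1, of the spindle midzone, separated by named transcripts alone. The list divided the treated libraries: 20 or 21 of the 24 genes lay below both controls in each of 4 treated libraries, and 8 in Free-MK1775 replicate 2, where 9 lay above both. Of all 12142 genes, 29.1% to 37.9% lay below both controls in each of those 4 libraries, and in Free-MK1775 replicate 2 32.9% lay below and 29.7% above, near the shares of the list there. Without that library 18 of 24 separated downward, and without negative control replicate 1 the count was 13. With the unnamed transcripts added together with median-of-ratios scaling, 4 did. The median transcript length of the list was 3631 bases, longer than the 2750 of all genes.

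DNA replication genes gave 7 of 24 lower (29.2%), 1 higher and a median of -0.11. Mcm6, a subunit of the replicative helicase, stood at 59.9 and 56.7 FPKM in the controls, 47.3 and 50.6 with Free-MK1775, 40.6 with Free-MK1775+NLG919, and 43.4 and 48.6 with Lipo-MK1775+NLG (-0.34, SE 0.11). Its partner Mcm3 went from 34.5 and 37.8 to between 26.8 and 31.8, and the licensing factor genes Cdc6 and Orc1 from 5.70 and 5.68 to between 3.10 and 4.74 and from 3.81 and 2.67 to between 0.273 and 2.45. The change of Orc1 shrank from -0.80 to -0.45 with the unnamed transcripts added. In all 4 the lowest value was in Free-MK1775+NLG919 replicate 1. The list's median length of 2978 bases was close to that of all genes. The count of lower members was 12 with FPKM rescaled to nuclear genes and 12 without Lipo-MK1775+NLG replicate 2.

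Repair genes had 8 of 22 members lower (36.4%), 0 higher and a median of -0.16, with a median transcript length of 4767 bases, in the range of the longest class of genes. Fanca, of the Fanconi anaemia core complex, stood at 3.88 and 4.32 FPKM in the controls and at 2.54, 3.06, 2.37, 3.36 and 2.91 in the treated libraries. Its partner Fanci and the single-strand binding subunit gene Rpa2 also lay below both controls, at smaller changes (-0.25 and -0.18). Atr, the kinase that senses stalled replication, had the widest change (-1.12, SE 0.43), at 1.96 and 3.39 FPKM in the controls and between 0.106 and 1.90 in the treated libraries, and -0.40 with the unnamed transcripts added.

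The promoters of Mcm6 and Mki67 are shown for the replication and mitosis genes. Capitals mark the E2F motif TTCGCGC (the other strand reads GCGCGAA) in Mcm6, present at 3 places, and the cell cycle homology region TTTGAA, at 2 places, in Mki67. The E2F letters occurred in 1.59% of all windows and in 2 of the 6 lower replication genes with a window (Mcm6 and Orc1). The TTTGAA letters occurred in 17.9% of all windows and in 4 of 6 lower mitosis genes (Kif23, Mki67, Prc1 and Ttk). For genes, any window counted.
Mcm6 promoter (RefSeq, GRCm38.p6, chr1:128359656-128359955, minus strand): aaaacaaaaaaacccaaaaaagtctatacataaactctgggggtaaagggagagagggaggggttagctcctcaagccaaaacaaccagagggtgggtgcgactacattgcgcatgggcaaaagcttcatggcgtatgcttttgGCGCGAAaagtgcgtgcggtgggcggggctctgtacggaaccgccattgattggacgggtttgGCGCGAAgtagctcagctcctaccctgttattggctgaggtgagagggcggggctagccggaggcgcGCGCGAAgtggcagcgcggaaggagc
Mki67 promoter (RefSeq, GRCm38.p6, chr7:135716330-135716629, minus strand): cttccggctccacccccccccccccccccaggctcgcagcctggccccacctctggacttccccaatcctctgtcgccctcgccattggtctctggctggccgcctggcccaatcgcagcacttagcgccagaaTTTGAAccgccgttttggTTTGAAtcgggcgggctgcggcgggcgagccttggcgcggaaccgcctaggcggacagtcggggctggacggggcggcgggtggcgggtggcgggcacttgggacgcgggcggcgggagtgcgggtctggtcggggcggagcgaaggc

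Targets of p53, the transcription factor that stops damaged cells, had 5 of 18 members lower and 1 higher. Cdkn1a, the CDK inhibitor p21, stood at 28.7 and 28.6 FPKM in the controls and at 22.4, 25.3, 24.7, 22.2 and 28.0 in the treated libraries, a small change of -0.22 (SE 0.11). The exonuclease gene Aen was lower by a similar amount (-0.20), and Plk3, given above, belongs to the same list. Sesn1, which restrains mTORC1 and oxidative damage, went the other way, from 5.09 and 6.06 FPKM to between 7.75 and 12.1 (0.71, SE 0.17).

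ATF4 target genes of amino acid supply were among those below the controls. ATF4 is the factor translated when amino acids run short or misfolded protein builds up. Of 23 members, 8 separated downward (34.8%) and 1, the chaperone gene Hyou1, upward (0.18, but below both controls at -0.11 with the unnamed transcripts added), and the list had a median of -0.19 and a median transcript length of 1995 bases, shorter than that of all genes. Asns, asparagine synthetase, stood at 34.1 and 35.9 FPKM in the controls, 15.3 with Free-MK1775+NLG919, 25.7 and 27.7 with Lipo-MK1775+NLG, and between these, up to 27.5, with Free-MK1775 (-0.60, SE 0.23). Chac1, which degrades glutathione and is used as a marker in ferroptosis work, stood at 17.2 and 21.8 in the controls and at 10.0, 12.4, 5.62, 15.2 and 13.3 (-0.79, SE 0.33). In both genes the treated libraries kept the same lowest member, Free-MK1775+NLG919 replicate 1. Ddit3, the death-linked factor CHOP, went from 21.0 and 26.2 FPKM to between 13.8 and 19.6, and Herpud1, of protein degradation at the endoplasmic reticulum, from 37.9 and 44.3 to between 24.7 and 35.3. The other 4 were Atf4, Psat1, Phgdh and Shmt2, of which Shmt2 did not separate with median-of-ratios scaling.

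The Asns and Chac1 promoters are shown with the core of the ATF4 response element, TGATGNA, in capitals (the other strand reads TNCATCA). It occurred in 12.2% of all windows and in 3 of the 8 lower genes, all of which had a window; the third was Herpud1.
Asns promoter (RefSeq, GRCm38.p6, chr6:7693160-7693459, minus strand): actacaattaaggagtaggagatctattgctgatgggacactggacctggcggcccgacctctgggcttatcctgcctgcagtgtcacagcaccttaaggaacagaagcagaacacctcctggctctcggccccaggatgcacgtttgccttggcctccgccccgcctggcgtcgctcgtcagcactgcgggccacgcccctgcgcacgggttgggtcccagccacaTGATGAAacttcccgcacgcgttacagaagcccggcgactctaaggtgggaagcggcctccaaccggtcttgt
Chac1 promoter (RefSeq, GRCm38.p6, chr2:119350992-119351291, plus strand): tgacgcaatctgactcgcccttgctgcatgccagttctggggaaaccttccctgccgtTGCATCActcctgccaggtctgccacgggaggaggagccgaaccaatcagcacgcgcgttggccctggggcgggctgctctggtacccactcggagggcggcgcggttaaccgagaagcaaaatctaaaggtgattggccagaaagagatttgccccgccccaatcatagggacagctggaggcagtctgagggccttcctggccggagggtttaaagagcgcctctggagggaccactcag

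**Figure D5:**
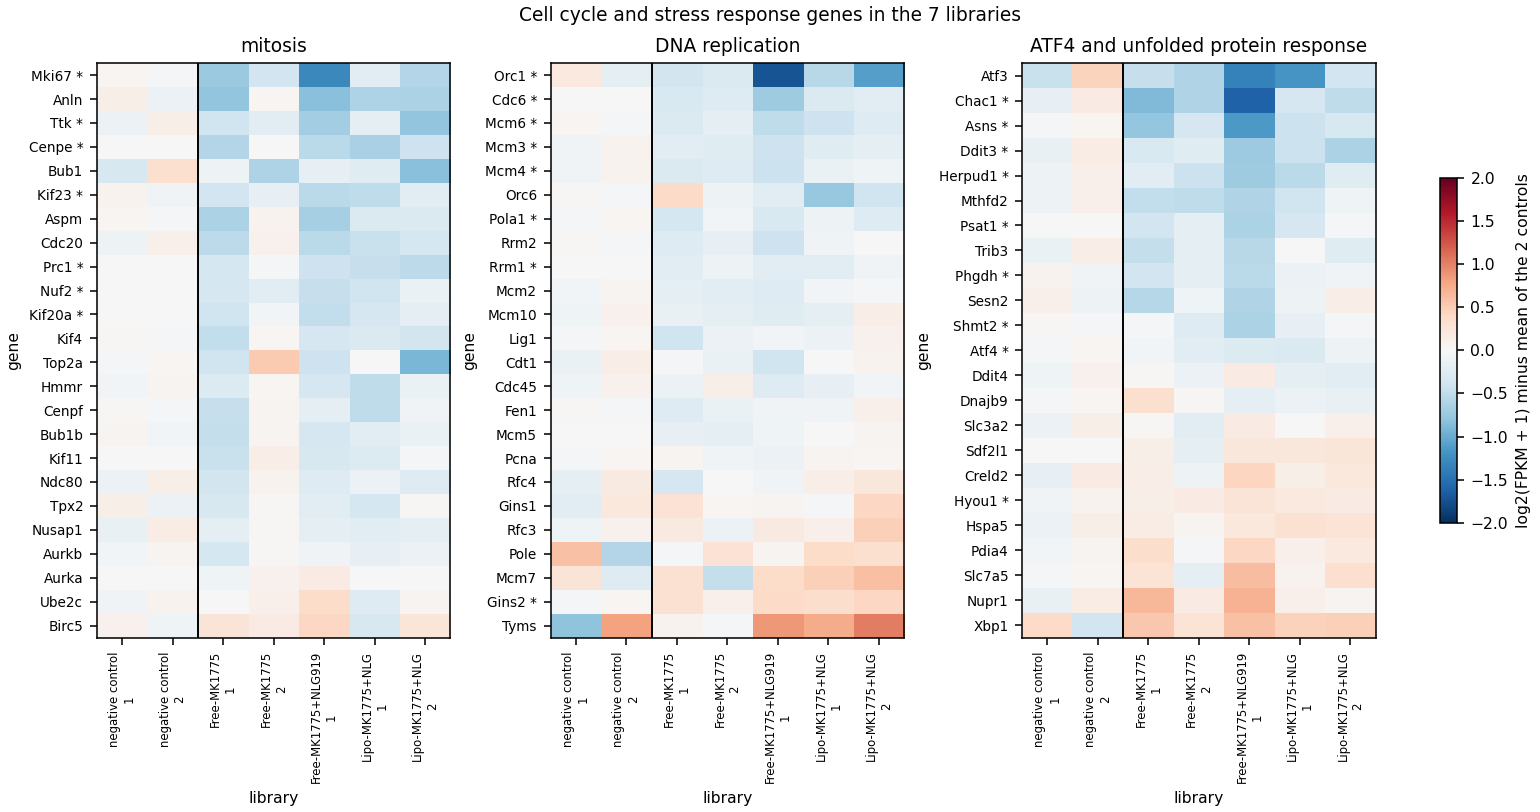
Difference of log2(FPKM + 1) from the mean of the 2 controls (colour, red higher and blue lower, limited to 2 log2 units) for members of the mitosis, DNA replication and ATF4 lists (rows) in the 7 libraries (columns, controls left of the line). An asterisk marks the 7, 8 and 9 members beyond both controls in all 5 treated libraries, in either direction; Free-MK1775 replicate 2 is paler than the others for mitosis genes.

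Of 26 immediate early genes 3 separated, all downward (11.5%), and of 14 genes of the EGF and FGF families 1 (7.14%), shares near the 8.21% of all genes; 22 of the 26 changes were negative. Fosl1, the AP-1 subunit FRA-1, stood at 30.9 and 26.8 FPKM in the controls, 16.4 and 22.7 with Free-MK1775, 7.69 with Free-MK1775+NLG919, and 16.9 and 19.5 with Lipo-MK1775+NLG (-0.83, SE 0.35). Klf4, a transcription factor of differentiation, went from 12.03 and 12.4 to between 6.18 and 8.87 (-0.65, SE 0.14), with little spread on either side. The mRNA decay factor Zfp36 went from 22.9 and 22.0 to between 14.4 and 18.3, and the growth factor Hbegf, a ligand of the EGF receptor, from 21.5 and 28.5 to between 10.7 and 17.6 (-0.76, SE 0.20). On the list of the G-CSF and CXCR2 axis 2 of 13 tested genes were lower, neither of them G-CSF or a CXCR2 ligand. They were Il6, from 1.75 and 1.61 FPKM to between 0.590 and 1.57, and Il11, which did not separate under median-of-ratios, quantile or nuclear scaling.

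Clock genes, which keep daily time, gave 4 of 16 lower. Per1, a repressor that glucocorticoids and feeding also drive, stood at 23.4 and 16.3 FPKM in the controls, 10.6 and 14.2 with Free-MK1775, 8.02 with Free-MK1775+NLG919, and 5.56 and 4.07 with Lipo-MK1775+NLG (-1.22, SE 0.41). Here the Lipo-MK1775+NLG pair was lowest. Clock was below the controls as well (4.91 and 5.01 against 0.132 to 4.17), at -0.88 and at -0.48 with the unnamed transcripts added, as was Nfil3 by a small amount (-0.27). The hour at which tumours were taken is not in the labels, so it cannot be set beside these values.

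Hypoxia and glycolysis genes showed no shared lean, with 2 of 25 lower, 0 higher and a median of -0.04. The lower ones were Ero1a, an oxidase of the endoplasmic reticulum (92.6 and 95.5 FPKM against 36.2 to 83.6), and the vasodilator gene Adm (30.6 and 41.0 against 15.4 to 29.2).

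Ferroptosis genes did not share a direction. Of 21 defence genes 3 were higher and 1 lower with a median of 0.02, and of 21 driver genes 1 was higher and 1 lower with a median of 0.18. Gpx4, which reduces lipid peroxides, stood at 220 and 261 FPKM in the controls and at 280, 254, 222, 233 and 238 in the treated libraries, and the sign of its change (0.03) flipped with the scaling. Acsl4, which loads membranes with oxidisable lipids, stood at 17.3 and 17.9 in the controls and at 29.6, 22.3, 37.3, 18.04 and 22.5 in the treated libraries (0.50, SE 0.25); Lipo-MK1775+NLG replicate 1 lay so near the controls that the separation ended under median-of-ratios, quantile and nuclear scaling. Slc7a11, the cystine carrier, did not pass the filter on low values. Gclm, of glutathione synthesis, was lower as deposited (-0.45) and did not separate under those 3 scalings.

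Iron genes gave 3 of 19 higher and 2 lower. Tfrc, the transferrin receptor through which cells take up iron, stood at 34.5 and 44.1 FPKM in the controls, 20.6 and 31.4 with Free-MK1775, 9.22 with Free-MK1775+NLG919, and 20.5 and 25.4 with Lipo-MK1775+NLG (-0.93, SE 0.40). With the unnamed transcripts added, Free-MK1775 replicate 2 stood at 43.3 against controls of 39.9 and 54.4, so the groups overlapped. Slc25a37, the mitochondrial iron importer, was lower at 16.0 to 25.1 FPKM against 34.0 and 32.4 (-0.67, SE 0.18). Aco1, the iron-sensing protein IRP1, was higher at 5.61 to 8.29 against 4.63 and 3.69 (0.53, and 0.21 with the unnamed transcripts added), and the ferritin light chain gene Ftl1 at 1725 to 2130 against 1616 and 1566; Ftl1 did not separate under quantile or nuclear scaling, and ceruloplasmin (Cp) did not with the unnamed transcripts added.

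NRF2 and glutathione genes, the antioxidant programme, had 6 of 24 higher (25%) and 2 lower. The glutathione transferase genes Gsta4 and Gstm1 stood at 5.42 and 7.25 and at 5.61 and 5.94 FPKM in the controls, and at 8.46 to 18.9 and 7.49 to 11.6 in the treated libraries (0.83, SE 0.28, and 0.62, SE 0.15). Txn1, thioredoxin, went from 197 and 225 to between 238 and 317, and Me1, malic enzyme, went the other way, from 21.3 and 21.0 to between 13.9 and 19.1. The gene of the factor itself, Nfe2l2, differed by 0.14 and did not separate under quantile or nuclear scaling.

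For the target pathway of NLG919, Ido1 did not separate. It stood at 2.85 and 2.63 FPKM in the controls, 3.35 and 3.05 with Free-MK1775, 1.37 with Free-MK1775+NLG919, and 1.28 and 1.00 with Lipo-MK1775+NLG, so the libraries without NLG919 lay above both controls and those with it below; the difference among the treated groups did not pass limma's moderated F test (adjusted p = 0.393). Of 8 tested genes of the pathway and its receptor AhR, 2 were higher, among them the AhR target Cyp1b1 (14.8 and 17.2 FPKM against 17.7 to 31.8; 0.63, SE 0.22). Type I interferon genes had 4 of 23 higher, 0 lower and a median of -0.04. Of the interferon gamma list 1 of 23 was higher and 1 lower. Ifi204, a DNA sensor that interferon induces, had a wide change (1.55, SE 0.51, and 1.03 with the unnamed transcripts added), at 1.94 and 0.371 FPKM in the controls and 8.54, 5.56, 8.34, 2.68 and 2.29 in the treated libraries.

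Further lists gave single genes. Annexins had 3 of 9 higher, of which Anxa6 went from 33.3 and 38.4 FPKM to between 40.3 and 97.3, while Anxa1 (0.34) did not separate under median-of-ratios, quantile or nuclear scaling or with the unnamed transcripts added. S100a4, a marker of mesenchymal cells, stood at 370 and 535 FPKM in the controls and 558 to 768 in the treated libraries, and it too did not separate under those 3 scalings. Of the 12 tested mesenchymal genes it was the 1 that lay higher, and Snai1 (-0.34) was the 1 that lay lower. Changes on that list were positive for 4 and negative for 8, with a median of -0.06. Tgfb3 was higher (8.63 and 13.4 against 13.5 to 25.7), as was the anaphylatoxin receptor gene C5ar1 (14.7 and 15.8 against 17.3 to 23.5), and the metalloproteinase gene Adamts1 was lower (8.50 and 8.27 against 4.16 to 7.16). Il1rn, the interleukin 1 receptor antagonist, was lower at 9.04 to 12.6 FPKM against 14.9 and 14.2. Cytosolic ribosomal protein genes had positive changes in 23 of 24 members with a median of 0.17, but 2 separated, among them Rpl3 (252 and 293 against 306 to 347).

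Neat1, a long noncoding RNA of nuclear paraspeckles, went from 101 and 76.2 FPKM to 48.1, 36.1, 37.9, 56.8 and 51.8 (-0.93, SE 0.20). The groups did not overlap. As a nuclear transcript it is set beside the lower levels of long transcripts, and its part in them was not tested. Among the mitochondrial transcripts, whose share chose the libraries, mt-Co1 stood at 5370 and 4132 FPKM in the controls and at 3101 to 5138 in the treated libraries, and mt-Rnr2 at 352 and 318 against 163 to 312.

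The treated libraries were not equally far from the controls. Free-MK1775+NLG919 replicate 1 was the most extreme treated library in 58.3% of the higher and 43.4% of the lower genes, and each of the other 4 in 4.08% to 15.5% and 6.82% to 24.3%. Free-MK1775 replicate 2 was the least often extreme in both directions. Without it 2270 genes were higher and 1555 lower, against 1152 and 997 with it. Leaving out a control widened the counts as well, to 2206 and 1999 without negative control replicate 1 and to 3103 and 2272 without replicate 2.

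Differences among the 3 treated groups were tested with limma's moderated F test in a fit with a mean per group. At an adjusted p under 0.05, 2 genes were called (0.0165% of those tested), and 894 had an unadjusted p under 0.05; a miss does not show that the groups were alike. Both called genes lie outside the rule for named genes and were chosen after their values had been seen. Ddx1, an RNA helicase gene, stood at 2.74 FPKM in Free-MK1775+NLG919 replicate 1 and between 19.3 and 20.6 in the other 6 libraries (adjusted p = 0.0403). That group has 1 library, so the spread in the test comes from the other groups and the call rests on this library. Rps18-ps6, a pseudogene of a ribosomal protein whose reads can be shared with its copies, was listed at 0 in the Free-MK1775 and Free-MK1775+NLG919 libraries, at 301.6 and 592 FPKM with Lipo-MK1775+NLG, and at 537 and 517.9 in the controls (adjusted p = 0.0102).

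The 3 libraries left out by the rule carried 47.3% to 64.1% of their summed FPKM on mitochondrial transcripts, so their levels are printed without a comparison. In Free-MK1775+NLG919 replicate 2, Lipo-MK1775 replicate 1 and Lipo-MK1775 replicate 2, in that order, Prl2c3 stood at 0, 2.15 and 4.05 FPKM, Tpsab1 at 2.11, 1.06 and 10.5, and Npnt at 14.3, 8.49 and 0.574. The last of these was low for Npnt and highest for Prl2c3 and Tpsab1. Mmp12 stood at 16.5, 28.3 and 40.9, and Apoe at 393, 295 and 866, both highest in Lipo-MK1775 replicate 2.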

How the data were processed

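RNA was sequenced in 10 libraries of subcutaneous 4T1 tumour. The deposited values are FPKM per transcript, which the authors computed from their reads; the submitters' processing notes name FastQC, Trim Galore, HISAT2, StringTie and genome build GRCm39, with versions and strand not given in the sources used here; overlapping and antisense genes therefore cannot be told apart. The table holds 161762 transcripts, 21051 of them without a symbol; depth is known only in relative terms. FPKM was summed per gene symbol over 52324 symbols, and the test covered the 12142 symbols that reached FPKM 1 in 2 or more of the 7 kept libraries. The limma test (version 3.58.1, R 4.3.3; Python 3.11.15) used log2(FPKM + 1), a variance trend, a two-sided p and Benjamini-Hochberg adjustment at 0.05; fold changes on that scale understate the change of low genes. The script was tested on simulated data.

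Libraries, members and the 58 gene lists were chosen with earlier results of these data known. Genes were named by rule: the 15 per direction with the widest gap between treated and control libraries, up to 4 separated members of each list (or its 2 most abundant), and 16 fixed genes; predicted genes and pseudogenes were left out. Of the 186 genes so named, 138 had a RefSeq promoter window (GRCm38.p6, a build other than that of the files), and not all are printed; some items are not reported here. The 19 alternatives changed the pseudocount, filter, scaling, transcript summary, fit and libraries; 1, which adds unnamed transcripts together with median-of-ratios scaling, was chosen after seeing the data.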

Additional observations from a re-analysis of the deposited data

Results flagged for a closer look

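Among the 136 genes followed in the text, the 5 treated libraries were searched for a single library far from the other 4, and 6 genes were picked out by Dixon's criterion for 5 values (critical ratio 0.71); chance alone picks about 1 in 20 groups. Vwa5a stood at 40.7 FPKM in Lipo-MK1775+NLG replicate 1 and at 16.2 to 17.97 in the other treated libraries. Cdc6 stood at 3.10 FPKM and Mcm3 at 26.8 in Free-MK1775+NLG919 replicate 1, against 4.44 to 4.74 and 30.3 to 31.8 in the others. Zfp36 stood at 14.4 FPKM in Lipo-MK1775+NLG replicate 1, against 17.1 to 18.3. Il1rn stood at 9.04 FPKM in Free-MK1775 replicate 1, against 11.9 to 12.6. Flt1 stood at 8.35 FPKM in Free-MK1775 replicate 1, against 6.93 to 7.30.

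By limma's moderated F test with Benjamini-Hochberg adjustment 2 genes were called among the treated groups. Ddx1 (adjusted p = 0.0403) was low in the single Free-MK1775+NLG919 library, so the call rests on that library, with the spread taken from the other groups. Rps18-ps6 (adjusted p = 0.0102) was present with Lipo-MK1775+NLG alone among them. In the libraries that the comparison did not use, the mitochondrial share of summed FPKM was 47.3% in Free-MK1775+NLG919 replicate 2, 64.1% in Lipo-MK1775 replicate 1 and 56% in Lipo-MK1775 replicate 2, above the 3.70% and 4.79% of the controls.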

How the results depend on the processing

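By limma the number of genes called stayed at 0 in both directions under 10 of the 12 alternatives that kept every library; 26 genes were called lower with no filter on low values, and 1, Rps18-ps6, with a mean per group and the treated groups weighted equally. Leaving out 1 library gave 0 to 4 genes called higher and 0 to 0 lower; the 4, without negative control replicate 2, were Plcb3, Rpl37, Tns4 and Uqcc2, none named by the rule. The smallest adjusted p of a named gene under any alternative was 0.0521. Without 1 library the genes beyond the controls in every treated library numbered 1234 to 3103 higher and 1105 to 2272 lower. The list counts then ran from 6 to 9 for mast cell, 5 to 6 for neutrophil, 4 to 12 for macrophage, 7 to 18 for mitosis, 7 to 12 for DNA replication, 8 to 12 for repair and 8 to 11 for ATF4 members.

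With libraries of high mitochondrial share included (all 10), 67 genes, 0 neutrophil and 1 macrophage members lay higher in every treated library. Rescaling to nuclear genes gave 707 higher genes and 12 lower replication members, no filter gave 1759 lower genes, and adding unnamed transcripts together with median-of-ratios scaling gave 4 lower mitosis members. Of 2570 gene values under alternatives, 31 had the opposite sign. With unnamed transcripts added, Trim25 had 0.0103, Vma21 -0.22 and Hyou1 -0.11 (-0.24 and -0.12 with median-of-ratios scaling as well). In all 10 libraries Acta1 had -0.88, Krt8 -0.37, Gpx4 -0.20, Acsl4 -0.22, Nfe2l2 -0.42, Cp -0.0106, Cyp1b1 -0.12, C5ar1 -0.077, Hyou1 -0.44, Flt1 -0.36, Mmp8 -0.21, Retnlg -0.0937, Lcn2 -0.0772, mt-Rnr2 0.92 and mt-Co1 1.48. Gpx4 had -0.00906 with median-of-ratios, -0.13 with quantile and -0.0864 with nuclear scaling, and Krt8 -0.065 with quantile scaling. Leaving out negative control replicate 1 or 2 gave 2.52 and -4.63 for Krt14, 0.15 and -1.59 for Epcam, -0.15 and 0.38 for Krt8, 0.81 and -0.12 for Cd8a, and 1.47 and -0.51 for Acta1, and Gpx4 had -0.0959 without replicate 1 and -0.0196 without Free-MK1775 replicate 1. The causes were not tested beyond what each alternative changes.

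Deviations of same-numbered libraries correlated at -0.186, -0.193 and 0.0277 over 12142 genes in the 3 pairs of groups that kept both libraries. With 2 libraries a group these values cannot show whether replicate numbers pair the samples. With the replicate block 0 genes were called higher and 0 lower. Relative depth, known without read counts, gives no interval for a single value.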
